A study of Drosophila melanogaster with 34 samples.

Results

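The data are whole-larva expression profiles of the variable-regime populations of a long-running Drosophila melanogaster selection experiment, and they set larvae that hatched from ethanol-soaked eggs against larvae that hatched from water-soaked eggs. The members are all arrays titled with population M1 or M2, 10 of the 34 arrays of the series, of which 5 hold ethanol larvae and 5 hold water larvae. M1 and M2 are 2 replicate laboratory populations of one outbred stock, kept for over 300 generations in 50 vials per generation. Equal numbers of each population's vials held standard medium and medium with 12% ethanol, and the progeny of both kinds were mixed before each new generation. The ethanol larvae came from eggs laid over 3 hours and then covered for 15 hours with 18% ethanol, which the laying medium diluted to about 12%. The water larvae came from eggs covered with distilled water for the same time. Parents of both groups had lived on standard medium at 25 °C for 2 generations or more. By their labels both groups carry the same selection history, and their described treatment differs in what covered the eggs. Survival and time of hatching were not analysed here. Newly hatched first-instar larvae were gathered over intervals of 45 minutes, and RNA was taken from pools of 50 to 200 whole larvae in blocks on different days. Titles end in 1, 2 or 5, taken here as the extraction day. M1 supplied ethanol arrays for days 1, 2 and 5 and water arrays for days 1 and 5, and M2 supplied ethanol arrays for days 2 and 5 and water arrays for days 1, 2 and 5. Arrays of water-exposed M1 on day 2 and ethanol-exposed M2 on day 1 were not analysed here. The comparison populations are E1 and E2, kept on ethanol medium, and R1 and R2, kept on standard medium, with 6 ethanol and 6 water arrays per regime. Whether the arrays of a population stem from separate cultures is not stated, and p-values therefore measure only the spread between these RNA samples, which may be technical.

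Fruit fly larvae feed in fermenting fruit, where ethanol is both a food and a poison. Alcohol dehydrogenase oxidises ethanol to acetaldehyde, which is oxidised to acetate, and acetyl-CoA synthetase then joins acetate to coenzyme A. The acetyl-CoA enters the tricarboxylic acid cycle or is built into fatty acids, a synthesis that consumes NADPH from the pentose phosphate pathway and malic enzyme. Larvae also take sugars and fats from food through maltases, amylases, mannosidases and lipases of the gut.

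The values are log2 expression per probe set, a set of short probes for 1 transcript, so a difference of 1 is a 2-fold difference. The medians of the 10 arrays lay between 3.91 and 4.02, between 9306 and 9394 of 18769 probe sets reached a value of 4, and the arrays correlated with each other at 0.989 to 0.997. Defining markers of larval midgut, muscle, neurons and trachea were detected, although the neuron marker VGlut stayed below 4 on all 10 arrays. Yolk and egg shell genes (7 of 8), late testis genes (7 of 9) and the salivary glue genes Sgs3, Sgs4, Sgs7 and Sgs8 stayed below 4 on all 10 arrays, as did the fat body genes Fbp1 and Lsp2, which are known for later larval stages.

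The day 5 arrays of the variable and ethanol regimes went against their population labels. Over 200 probe sets that separate the 6 populations on days 1 and 2, all 6 variable-regime arrays of days 1 and 2 were most like their own population, at correlations of 0.866 to 0.901. The 200 were chosen on the labelled arrays of days 1 and 2, the compared array included, so this agreement is partly built in. Arrays of day 5 took no part in that choice. All 4 arrays labelled M1 or M2 on day 5 were most like the ethanol-regime population of the same number, E1 or E2, at 0.903 to 0.944, and correlated with their labelled population at 0.194 to 0.582. Both exposures of a label were nearest the same population, so each day 5 pair still compares ethanol with water within 1 apparent population. The reverse held for the 4 arrays labelled E1 or E2 on day 5, which were most like the variable-regime population of the same number, M1 or M2, at 0.797 to 0.867, and correlated with their labelled population at 0.305 to 0.616. The day 5 arrays of the control populations R1 and R2 were most like their own population, at 0.842 to 0.903. No array was given another label here. Changes are therefore given for all 10 arrays and for the 6 arrays of days 1 and 2. In a difference between the variable and ethanol regimes that includes day 5, arrays nearest the other regime stand on both sides.

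**Figure D1:**
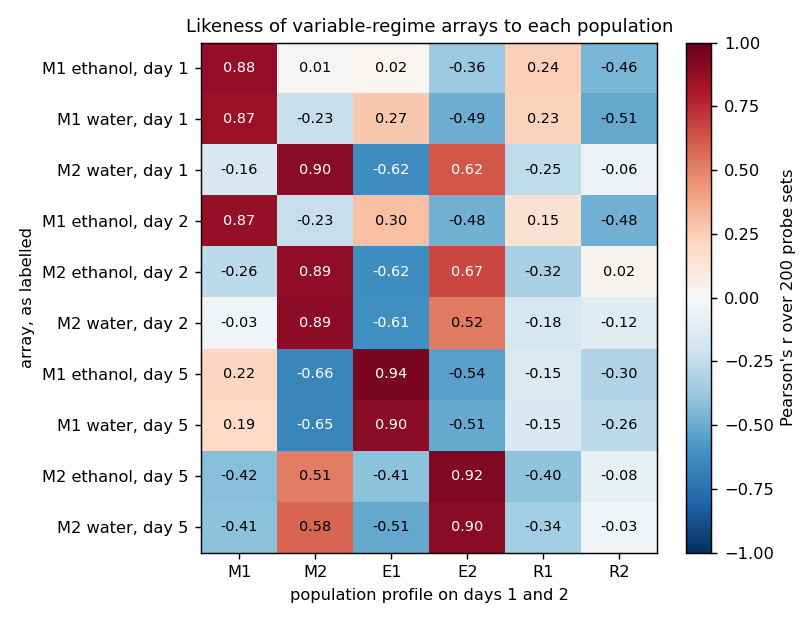
Pearson correlation (colour and printed value) of each variable-regime array, as labelled (rows), with each population's profile (columns) over 200 probe sets. Profiles are of days 1 and 2 and leave out the array itself, but the probe sets were chosen on all arrays of those days. The 6 arrays of days 1 and 2 are highest with their own population, and the 4 arrays of day 5 are highest with E1 or E2.

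After ethanol, larvae of the variable regime had more transcript of AcCoAS, ACC and FASN1, which act between acetate and fatty acids, although 15 of 20 genes of fatty acid and lipid synthesis did not pass. All 5 tested pentose phosphate genes rose, of which 2 also passed without the day 5 arrays. Lower transcripts included 7 of 12 lipase genes, all 5 tested alpha-mannosidase genes and 3 of 24 digestive protease genes. Of 9372 probe sets tested, 448 differed between ethanol and water larvae at a limma adjusted p under 0.05 (4.78%), 221 of them higher (2.36%) and 227 lower (2.42%) in ethanol. A probe set was tested if it reached 4 on at least 5 of the 10 arrays, and the model held exposure, population and day. Changes of more than 2-fold numbered 42 higher and 76 lower, and the median size of a called change was 0.71 on the log2 scale. The sign was the same in all 4 pairs of ethanol and water arrays from 1 population and day in 447 of the 448, which were called on these same pairs, and in 2167 of all tested (23.1%). The 5 ethanol arrays did not overlap the 5 water arrays in 201 of the 448 and in 386 of all tested (4.12%), and the same arrays made the calls. Without day 5, the 6 remaining arrays gave 356 calls (3.8%), 139 higher (1.48%) and 217 lower (2.32%). The 2 sets shared 212 probe sets, 47.3% of the first and 59.6% of the second, and all 448 kept their sign on the 6 arrays, which are among the 10. Leaving out 1 array gave 160 calls without M1 ethanol of day 1, 167 without M2 ethanol of day 5, 263 without M2 water of day 2 and 267 without M1 water of day 5. The last probe set to pass, for CG32447, had a change of 0.44 at adjusted p = 0.0499, and the first to miss, for CG9886, had 0.52 at 0.0501.

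**Figure D2:**
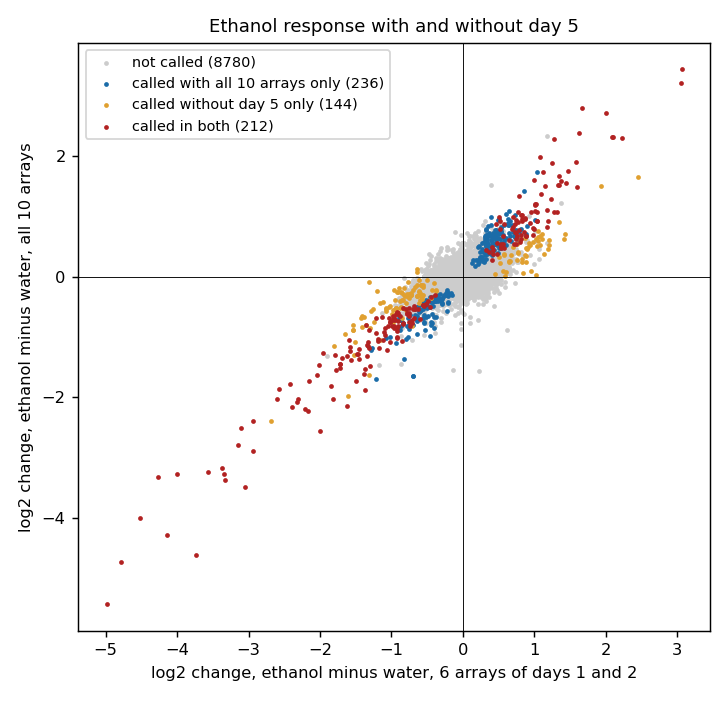
Log2 change (ethanol minus water) of 9372 probe sets from all 10 arrays (vertical axis) against that from the 6 arrays of days 1 and 2 (horizontal axis). Colours mark 212 probe sets called in both, 236 called with all 10 arrays only and 144 called without day 5 only.

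The values below are log2 levels, in the order M1 day 1, M1 day 2, M1 day 5, M2 day 2 and M2 day 5 for ethanol larvae, and M1 day 1, M1 day 5, M2 day 1, M2 day 2 and M2 day 5 for water larvae. The largest increase was that of CG13215, at 8.58, 8.97, 7.83, 8.47 and 7.76 in ethanol larvae, against 5.49, 3.81, 4.83, 5.43 and 4.59 in water larvae. Every ethanol array lay above every water array, and the change was 3.44 ± 0.20 (standard error), a 10.8-fold difference (limma adjusted p = 4.72e-05), or 3.06 on the 6 arrays without day 5. CG12766, whose product belongs to the aldo-keto reductases, stood at 8.86, 9.75, 9.77, 9.39 and 11.12 in ethanol larvae, against 4.60, 6.50, 6.26, 7.55 and 8.06 in water larvae. Its groups did not overlap either, although both groups spread widely, and it rose by 3.21 ± 0.31 (adjusted p = 0.000343), or by 3.05 on 6 arrays. CG1774 had 9.82, 10.29, 9.56, 10.39 and 10.45 in ethanol larvae, against 8.16, 4.97, 8.15, 8.72 and 7.87 in water larvae. The M1 water array of day 5 lay far below the other water arrays, and the rise of 2.81 ± 0.42 over 10 arrays became 1.67 without day 5 (adjusted p = 0.00471 and 0.000143). CG14205 had 8.14, 9.42, 8.70, 9.07 and 9.84 in ethanol larvae, against 5.96, 5.01, 6.61, 7.22 and 7.40 in water larvae, with a rise of 2.72 ± 0.33, or 2.01 without day 5.

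Mal-A8, a maltase gene, stood at 6.63, 7.15, 8.29, 6.34 and 8.70 in ethanol larvae, against 4.95, 5.43, 4.76, 4.78 and 5.43 in water larvae. The 2 day 5 ethanol arrays were the highest, and the gene rose by 2.39 ± 0.26 (adjusted p = 0.000746), or by 1.62 on 6 arrays. Obp99d, an odorant-binding protein gene, was at 8.77, 9.02, 8.63, 8.33 and 8.72 in ethanol larvae, against 6.47, 6.11, 6.03, 6.45 and 6.55 in water larvae. These groups were compact and far apart, and the gene rose by 2.32 ± 0.17 (adjusted p = 5.85e-05), or by 2.09 on 6 arrays. The other 6 of the 12 largest increases were CG32444, listed in RefSeq with an aldose 1-epimerase synonym (rise of 2.29 ± 0.16, 2.23 on 6 arrays), sug (2.28 ± 0.39, 1.28 on 6 arrays), CG3348 (1.99 ± 0.42, 1.09 on 6 arrays), CG12826 (1.90 ± 0.15, 1.58 on 6 arrays), CG17261 (1.88 ± 0.31, 1.25 on 6 arrays) and the maltase gene Mal-B1 (1.75 ± 0.15, 1.48 on 6 arrays). In all 12 the ethanol and water arrays did not overlap, as in 2.43% of all tested probe sets in this direction, but the 12 were chosen on these arrays for their size and common sign, so this only describes them. CG3348 missed the threshold when any 1 of 4 arrays was left out, with adjusted p = 0.0559 to 0.105, and sug missed it without M2 ethanol of day 5 (0.0506).

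Among transcripts that fell, Lip3, a lipase gene that starvation is known to induce, had the most negative fitted change. Its levels were 1.98, 2.03, 6.84, 1.78 and 2.41 in ethanol larvae, against 7.33, 11.22, 6.71, 6.39 and 8.01 in water larvae. Ethanol larvae were near the floor of the array except for the array labelled M1 on day 5, which lay above 2 water arrays. Water larvae of the same label were also the highest of their group, and Lip3 fell by 5.44 ± 0.55 (limma adjusted p = 0.000441), or by 4.98 without day 5 (1.15e-05). No fold is given, as 4 of the 5 ethanol arrays lay below the detection level of 4. With values under 4 set to 4, the change of Lip3 was -3.85 and that of CG6283 was -4.36. CG6283, a predicted lipase gene, had 3.25, 4.01, 7.61, 3.07 and 4.29 in ethanol larvae, against 8.66, 11.34, 6.91, 7.24 and 9.14 in water larvae. Here too the M1 pair of day 5 was high in both exposures, and the gene fell by 4.75 ± 0.32 (-4.79 on 6 arrays). CG12951, a serine protease gene by its RefSeq synonym, had 1.70, 1.97, 4.03, 1.60 and 1.89 in ethanol larvae, against 6.01, 10.20, 4.97, 4.76 and 5.43 in water larvae. No array overlapped, and the change of -4.62 ± 0.53 became -3.73 without day 5. It was -2.76 with values under 4 set to 4 (adjusted p = 0.0471).

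LManIII, a lysosomal alpha-mannosidase gene, had 1.60, 1.66, 5.79, 1.43 and 1.70 in ethanol larvae, against 6.93, 9.87, 4.94, 4.39 and 4.44 in water larvae. The ethanol arrays other than the one labelled M1 on day 5 lay below 2, and the gene fell by 4.29 ± 0.68 (adjusted p = 0.00603), or by 4.14 on 6 arrays. With values under 4 set to 4 the change was -2.29 and did not pass (adjusted p = 0.0725). CG4362 had 2.52, 2.53, 4.80, 2.63 and 5.32 in ethanol larvae, against 6.94, 8.91, 6.11, 7.25 and 8.23 in water larvae, without overlap, and fell by 4.01 ± 0.26 (-4.52 on 6 arrays). Amyrel, an amylase-related gene, had 3.26, 3.18, 6.06, 3.11 and 2.69 in ethanol larvae, against 6.71, 9.50, 5.54, 5.78 and 5.51 in water larvae. The M1 ethanol array of day 5 was above 3 water arrays, and Amyrel fell by 3.50 ± 0.50 (-3.06 on 6 arrays). The other 6 of the 12 largest decreases were CG8093, a predicted lipase gene (-3.37 ± 0.38, -3.33 on 6 arrays), the maltase gene Mal-A4 (-3.33 ± 0.46, -4.27 on 6 arrays), the immune peptide gene BomS6 (-3.27 ± 0.51, -3.34 on 6 arrays), the alpha-mannosidase gene LManV (-3.25 ± 0.41, -3.56 on 6 arrays), and CG9672 (-3.18 ± 0.53, -3.37 on 6 arrays) and CG18179 (-2.90 ± 0.33, -2.94 on 6 arrays), both listed under serine protease family names. The groups did not overlap in 4 of these 12, CG12951, CG4362, BomS6 and CG18179, and in 1.69% of all tested probe sets in this direction. All 24 leading genes also passed without day 5, and CG9672 missed the threshold without M2 ethanol of day 5 (0.0549). In all, 15 probe sets called lower averaged under 4 in ethanol larvae and 6 called higher averaged under 4 in water larvae, so the size of those changes depends on the background correction. A probe set silent in ethanol larvae could be tested only if it reached 4 on every water array.

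**Figure D3:**
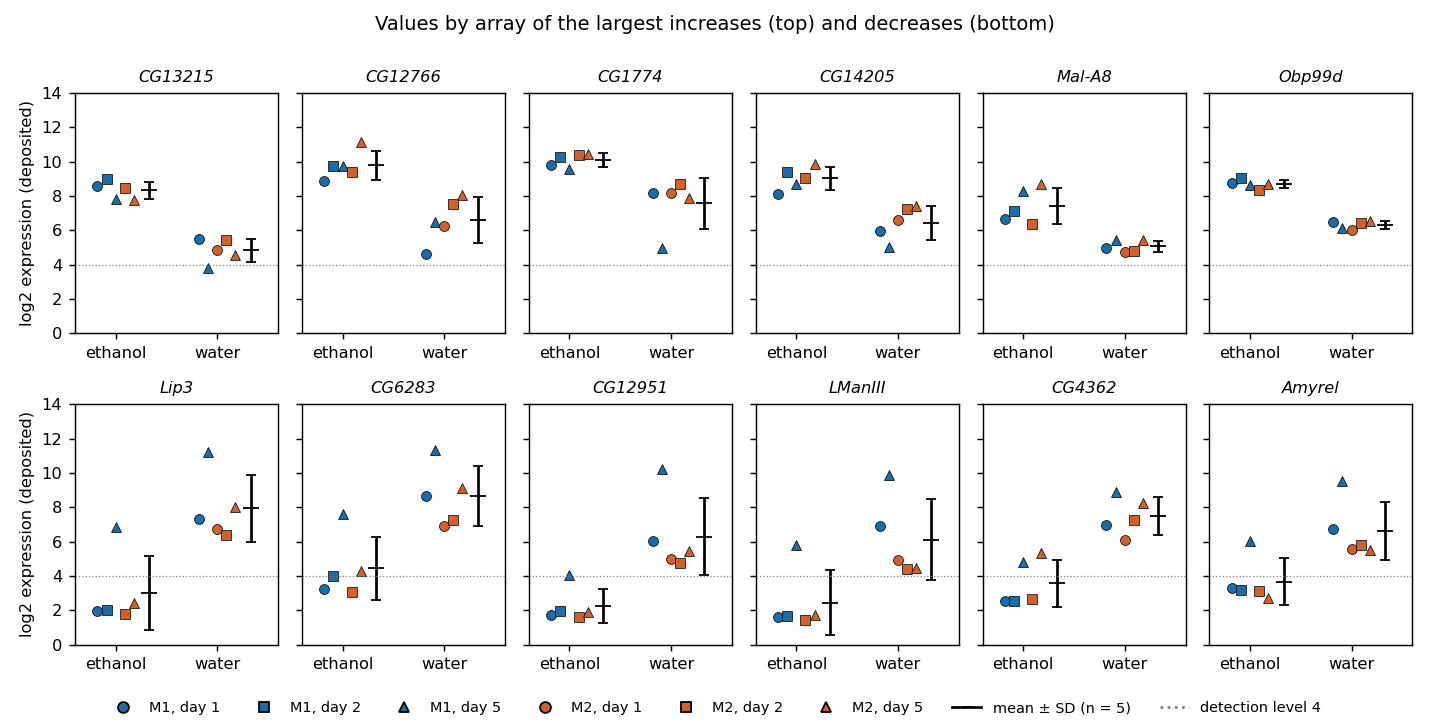
Deposited log2 expression (vertical axis) by array for the 6 largest increases (top) and 6 largest decreases (bottom), ethanol left of water, with the mean ± SD of 5 arrays and a dotted line at the detection level of 4. All 6 increases show no overlap, and the array labelled M1 ethanol of day 5 is the highest of its group for Lip3, CG6283, CG12951, LManIII and Amyrel.

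For gene lists, 1 probe set stood for each gene, the one of highest mean level, which gave 7799 genes, of which 383 were called (4.91%), 178 higher (2.28%) and 205 lower (2.63%), with a median change of -0.004. Without day 5, 283 were called (3.63%), 95 higher (1.22%) and 188 lower (2.41%). Among 8 tested genes of ethanol and acetate metabolism (13 listed), 3 were higher and 1 lower, with a median change of 0.12. AcCoAS, which encodes acetyl-CoA synthetase, stood at 12.96, 12.89, 12.66, 12.90 and 12.64 in ethanol larvae, against 12.14, 11.44, 12.30, 11.99 and 11.83 in water larvae. The lowest ethanol array exceeded the highest water array, and the gene rose by 0.95 ± 0.07 (limma adjusted p = 7.84e-05) and by 0.87 without day 5. Men, which encodes the NADPH-forming malic enzyme, rose by 0.45 ± 0.06 (0.33 on 6 arrays), and Mdh1, a cytosolic malate dehydrogenase gene, rose by 0.27 ± 0.06 (0.30 on 6 arrays). Cat, which encodes the peroxide-splitting catalase, fell by 0.88 ± 0.18 (-0.88 on 6 arrays). Without day 5 only AcCoAS and Men of these 4 passed, with Mdh1 at adjusted p = 0.13 and Cat at 0.061.

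The alcohol dehydrogenase gene Adh shares both of its tested probe sets with its neighbour Adhr, so the 2 genes cannot be told apart. The dimmer set had 7.96, 8.13, 8.13, 8.08 and 8.43 in ethanol larvae, against 7.34, 7.22, 7.47, 7.63 and 7.46 in water larvae. It rose by 0.75 ± 0.12 with no overlap (adjusted p = 0.00624), and had 0.53 without day 5 (0.102). The brighter set had 13.99, 13.95, 13.91, 13.95 and 13.92 in ethanol larvae, against 13.86, 13.76, 13.63, 13.75 and 13.75 in water larvae. All 10 values lie near the top of the scale, where differences are compressed, and the rise was 0.18 ± 0.04 (adjusted p = 0.0478), against 0.17 without day 5 (0.201). No tested probe set names Aldh, the acetaldehyde dehydrogenase gene, and it was not analysed here.

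Of 20 fatty acid and lipid synthesis genes, 5 rose and none fell, with a median change of 0.06 (3 higher without day 5). ACC, which encodes acetyl-CoA carboxylase, the committed step of fatty acid synthesis, had 12.08, 12.25, 11.80, 12.19 and 12.01 in ethanol larvae, against 11.23, 10.52, 11.34, 11.38 and 10.94 in water larvae. The groups did not overlap, and ACC rose by 1.03 ± 0.09 (adjusted p = 0.00015). FASN1, the fatty acid synthase gene, had 13.21, 13.27, 12.98, 13.26 and 13.11 in ethanol larvae, against 12.66, 11.71, 12.85, 12.76 and 12.39 in water larvae, and rose by 0.79 ± 0.11. The M1 water array of day 5 was the lowest in both, and the rises without day 5 were 0.83 for ACC and 0.52 for FASN1. Lsd-1, which encodes a perilipin of lipid droplets, rose by 0.99 ± 0.19 (0.51 on 6 arrays), FASN2 by 0.75 ± 0.15 (0.77 on 6 arrays) and the glycerol-3-phosphate dehydrogenase gene Gpdh1 by 0.33 ± 0.08 (0.27 on 6 arrays). The opposite held for lipases, where 7 of 12 tested genes (17 listed) fell and none rose, with a median change of -0.89 (6 lower without day 5). Besides Lip3, CG6283 and CG8093 these were CG17191 (-2.17 ± 0.15, -2.39 on 6 arrays), CG6295 (-1.78 ± 0.23, -2.42 on 6 arrays), Lip4 (-1.03 ± 0.20, -1.19 on 6 arrays) and bmm (-0.76 ± 0.15), which encodes the triglyceride lipase of fat storage. Of these only bmm did not pass without day 5, at -0.45 (adjusted p = 0.148). Of 11 fatty acid oxidation genes only yip2, a thiolase gene, passed, and fell by 0.51 ± 0.08 (-0.46 on 6 arrays).

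All 5 tested pentose phosphate genes (7 listed) rose, with a median change of 0.95. No probe set names Zw or Pgd alone, the listed genes of the NADPH-forming dehydrogenases, so those steps were not tested. Taldo, which encodes transaldolase, had 12.63, 12.55, 12.46, 12.41 and 12.66 in ethanol larvae, against 11.49, 11.12, 11.37, 11.54 and 11.45 in water larvae. CG8036, listed in RefSeq with a transketolase synonym, had 12.42, 12.44, 12.23, 12.40 and 12.53 in ethanol larvae, against 11.54, 11.24, 11.56, 11.63 and 11.46 in water larvae. In both genes the 5 ethanol arrays lay close together and above every water array, and the rises were 1.19 ± 0.09 (1.00 on 6 arrays) for Taldo and 0.96 ± 0.07 (0.83 on 6 arrays) for CG8036 (adjusted p = 7.58e-05 and 6.65e-05). Rpe rose by 0.95 ± 0.16, Pgls by 0.77 ± 0.13 and Rpi by 0.64 ± 0.13. These 3, which encode a pentose epimerase, a lactonase and a pentose isomerase, did not pass without day 5, at changes of 0.51, 0.45 and 0.42.

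Of 14 glycolysis and gluconeogenesis genes (17 listed), 6 rose and none fell, with a median change of 0.21 (2 higher without day 5). Pepck2, a phosphoenolpyruvate carboxykinase gene, had 9.47, 9.18, 8.50, 9.38 and 9.94 in ethanol larvae, against 7.81, 7.75, 7.71, 7.83 and 8.64 in water larvae. The highest water array, M2 of day 5, overlapped the lowest ethanol array, M1 of day 5, and the gene rose by 1.48 ± 0.24 (adjusted p = 0.00721), or by 1.60 on 6 arrays. Smaller rises were those of Pgi (0.48 ± 0.10, 0.22 on 6 arrays), the pyruvate carboxylase gene PCB (0.40 ± 0.07, 0.28 on 6 arrays), the aldolase gene Ald1 (0.28 ± 0.07, 0.41 on 6 arrays), the enolase gene Eno (0.22 ± 0.05, 0.13 on 6 arrays) and Pepck1 (0.21 ± 0.05, 0.21 on 6 arrays), and of these Ald1 alone also passed without day 5. Of 10 genes of glycogen and trehalose, 5 rose, with a median change of 0.33 (1 without day 5). Gbs-70E, which encodes a subunit that targets a phosphatase to glycogen, had 10.33, 10.76, 9.30, 10.58 and 9.58 in ethanol larvae, against 9.21, 7.0, 9.21, 9.0 and 8.34 in water larvae, and rose by 1.67 ± 0.21, or 1.35 without day 5. AGBE, the glycogen branching enzyme gene, rose by 0.86 ± 0.13 (0.69 on 6 arrays), the trehalose phosphate synthase gene Tps1 by 0.63 ± 0.12 (0.31 on 6 arrays), the glycogen phosphorylase gene Glyp by 0.50 ± 0.11 (0.32 on 6 arrays) and the phosphoglucomutase gene Pgm1 by 0.36 ± 0.08 (0.31 on 6 arrays). None of 11 tricarboxylic acid cycle genes passed in either fit, with a median change of 0.05.

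Of 14 nutrient-sensing genes (18 listed), 4 rose and none fell, with a median change of 0.14, and 4 rose without day 5. The sugar-induced zinc-finger factor gene sug had 11.66, 11.97, 11.57, 11.94 and 11.69 in ethanol larvae, against 10.39, 7.35, 10.41, 10.65 and 9.84 in water larvae. Ethanol arrays were nearly level while the M1 water array of day 5 was far below the rest, and the rise of 2.28 ± 0.39 became 1.28 without day 5 (adjusted p = 0.00929 and 0.000124). The activin-like ligand gene daw had 10.43, 10.59, 10.35, 10.50 and 10.49 in ethanol larvae, against 9.65, 9.61, 9.71, 9.72 and 9.78 in water larvae. Its groups were compact and apart, with a rise of 0.78 ± 0.09, and 0.78 without day 5. Mondo, which encodes a sugar-sensing transcription factor, rose by 0.49 ± 0.07 (0.41 on 6 arrays), and AkhR, which encodes the receptor of a fat-mobilising hormone, rose by 0.64 ± 0.15 (0.61 on 6 arrays). Without day 5 AkhR did not pass (0.0982) and the sestrin gene Sesn did, at 0.57 (adjusted p = 0.0321), against 0.36 ± 0.11 over 10 arrays (0.106).

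Digestive carbohydrase genes moved both ways, with 4 of 15 higher and 9 lower (20 listed; median change -0.82), and 3 higher and 9 lower without day 5. Besides Mal-A8 and Mal-B1, the maltase genes Mal-A6 (1.61 ± 0.26, 1.00 on 6 arrays) and Mal-A1 (0.68 ± 0.14, 0.38 on 6 arrays) were higher. Besides Mal-A4, Mal-A2 fell by 1.73 ± 0.22 (-2.15 on 6 arrays) and Mal-A3 by 0.81 ± 0.20 (-1.35 on 6 arrays). Mal-A4 had 4.46, 4.93, 8.94, 3.71 and 6.57 in ethanol larvae, against 8.15, 10.39, 7.57, 8.57 and 9.08 in water larvae. The array labelled M1 ethanol of day 5 lay above 3 of the 5 water arrays, and the change of -3.33 ± 0.46 became -4.27 without day 5. Every alpha-mannosidase gene of the LMan family that was tested fell, namely LManIII, LManV, LManVI (-1.86 ± 0.34, -2.57 on 6 arrays), LManI (-1.31 ± 0.21, -1.35 on 6 arrays) and LManII (-0.82 ± 0.14, -1.04 on 6 arrays), and all 5 passed without day 5. LManV had 5.84, 6.40, 9.24, 4.12 and 4.75 in ethanol larvae, against 9.15, 10.82, 7.44, 7.94 and 7.99 in water larvae, again with the array labelled M1 ethanol of day 5 highest of its group.

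Of 24 tested digestive serine protease genes (32 listed), 3 fell over 10 arrays and 8 without day 5, and none rose in either (median change -0.13). Jon99Ci, a Jonah-type protease gene of the midgut, had 11.15, 11.52, 12.53, 10.87 and 11.39 in ethanol larvae, against 12.38, 13.03, 12.19, 12.55 and 12.45 in water larvae. The array labelled M1 ethanol of day 5 lay within the water group, and Jon99Ci fell by 1.20 ± 0.17 (adjusted p = 0.00309), or by 1.46 on 6 arrays. Jon25Bi fell by 0.63 ± 0.13 (-0.93 on 6 arrays) and Jon25Bii by 0.46 ± 0.06 (-0.52 on 6 arrays). The 5 that passed without day 5 only were Jon66Ci at -1.54, Jon66Cii at -1.30, Jon44E at -0.76, Jon65Aii at -0.58 and zetaTry at -0.40. Midgut markers as a list (8 tested) included 1 higher, Mal-A1, and 1 lower, Jon99Ci, and their mean level ranged from 10.4 to 11.1 in ethanol larvae and from 10.2 to 10.9 in water larvae. In whole larvae, fewer cells of a type and less RNA per cell cannot be told apart.

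Of 10 tested immune peptide and recognition genes (49 listed), 3 fell and none rose, with a median change of -0.76 (4 lower without day 5). BomS6, which encodes a Bomanin, a short peptide induced by infection, had 6.69, 6.89, 9.57, 7.31 and 6.28 in ethanol larvae, against 10.16, 10.89, 10.47, 10.53 and 9.92 in water larvae. The array labelled M1 ethanol of day 5 stood well above the other ethanol arrays, yet no array overlapped, and BomS6 fell by 3.27 ± 0.51 (adjusted p = 0.0056), or by 3.34 on 6 arrays. BomS2 fell by 2.52 ± 0.46 (-3.10 on 6 arrays) and PGRP-SC2, an amidase that cuts peptidoglycan, by 1.24 ± 0.17 (-1.57 on 6 arrays). BomS5 had a change of -1.98 ± 0.59 (adjusted p = 0.093) and passed without day 5 at -1.61 (0.000844). Haemocyte markers did not pass in the 10 arrays (0 of 10). Negative changes were counted in 9 of these 10 and in 3972 of all 7799 genes, and likewise in 8 of 8 muscle markers, 14 of 15 ribosome biogenesis genes, 9 of 10 one-carbon genes and 11 of 12 DNA replication genes. NimC1 (-1.35) and Pxn (-0.88) fell without day 5. The mean level of the 10 tested haemocyte markers ranged from 7.73 to 8.21 in ethanol larvae and from 8.15 to 8.47 in water larvae. The crystal cell marker lz stayed below 4 on every array. The part of blood cells in the immune changes was not tested.

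Fat body markers are partly the metabolic genes above. Of 5 tested, Gbs-70E and FASN1 rose and bmm fell, and the mean level of the list ranged from 11.47 to 11.94 in ethanol larvae and from 11.02 to 11.63 in water larvae. No muscle, neuron or trachea and epidermis marker passed (0 of 8, 0 of 8 and 0 of 6). Of 5 embryonic patterning genes tested, the signal gene hh fell by 1.03 ± 0.20 (adjusted p = 0.0167), with -0.79 without day 5 (0.0925).

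Most genes of the detoxification families did not pass, as held for all tested genes, of which 4.91% were called. The share called was 14% of cytochrome P450 genes and 16.1% of glutathione S-transferase genes. Of 57 cytochrome P450 genes (83 listed), 3 rose, 5 fell and 49 did not pass (median change -0.07), and 0 rose and 4 fell without day 5. Cyp4ac1 had 8.29, 8.35, 8.79, 8.41 and 8.26 in ethanol larvae, against 9.28, 9.76, 9.37, 9.47 and 9.29 in water larvae. The groups did not overlap, and it fell by 1.09 ± 0.13 (adjusted p = 0.00114), or by 1.02 on 6 arrays. Cyp6a18 fell by 1.17 ± 0.26 (-1.58 on 6 arrays), Cyp28d1 by 0.72 ± 0.13 (-0.98 on 6 arrays) and Cyp12a4 by 0.34 ± 0.07 (-0.39 on 6 arrays). Cyp18a1, which encodes the enzyme that inactivates the moulting hormone, fell by 1.00 ± 0.16 (-0.76 on 6 arrays), and E23, a hormone transporter gene, fell by 0.66 ± 0.15 (-0.40 on 6 arrays), the 2 called of 12 moulting genes. Neither passed without day 5 (0.0805 and 0.287). Cyp4c3 rose by 0.95 ± 0.15 (0.63 on 6 arrays), Cyp6a8 by 0.69 ± 0.17 (0.33 on 6 arrays) and Cyp6w1 by 0.67 ± 0.14 (0.40 on 6 arrays). Cyp28d2 passed on 6 arrays only, at -0.57.

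Of 31 glutathione S-transferase genes, 2 rose, 3 fell and 26 did not pass (median change 0.01), and 3 rose and 2 fell without day 5. GstD10 had 8.18, 8.61, 10.38, 7.87 and 9.57 in ethanol larvae, against 9.38, 11.29, 9.18, 9.63 and 10.64 in water larvae. The groups overlapped, with the day 5 arrays high in both exposures, and GstD10 fell by 1.28 ± 0.14 (adjusted p = 0.000807), or by 1.48 on 6 arrays. GstD4 fell by 1.45 ± 0.26 (-1.72 on 6 arrays) and GstS1 by 0.57 ± 0.14 (-0.22 on 6 arrays), while GstE9 rose by 0.98 ± 0.15 (0.87 on 6 arrays) and GstO2 by 0.30 ± 0.06 (0.24 on 6 arrays). GstT4 and GstE7 passed on 6 arrays only, at 1.06 and 0.87. Of 24 sugar-transferase genes of the UGT family 22 did not pass (8.33% called), while Ugt36D1 rose by 0.73 ± 0.15 (0.65 on 6 arrays) and Ugt305A1 fell by 0.63 ± 0.15 (-0.75 on 6 arrays). Neither passed without day 5, while Ugt35E1 did, at -1.26. Of 11 heat shock genes, only Hsc70-3, a chaperone gene of the endoplasmic reticulum, passed, with a change of -0.26 ± 0.07 (-0.16 on 6 arrays, where it did not pass), and no gene of the 9 for folding in that compartment passed. Cat and Sid, a nuclease gene, were the 2 called of 12 oxidative stress genes, both lower, and neither passed without day 5. The metallothionein gene MtnD fell by 0.53 ± 0.10 (-0.79 on 6 arrays), 1 of 9 metal-binding genes.

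Of 21 odorant-binding protein genes (51 listed), 4 rose and none fell (median change 0.15; 3 higher without day 5). Besides Obp99d these were Obp18a (0.81 ± 0.14, 0.98 on 6 arrays), Obp50e (0.65 ± 0.12, 0.57 on 6 arrays) and Obp56d (0.55 ± 0.09, 0.48 on 6 arrays). Among 17 Npc2 and alkaline phosphatase genes, Alp7 fell by 2.03 ± 0.25 (-2.31 on 6 arrays) and Alp1 by 0.80 ± 0.19 (-0.45 on 6 arrays). Of 12 DNA replication genes, 1 fell over 10 arrays and 4 without day 5 (median change -0.45). RnrL, a ribonucleotide reductase gene, fell by 0.76 ± 0.15 (-1.02 on 6 arrays), and PCNA had -0.51 ± 0.14 over 10 arrays (adjusted p = 0.0711) and -0.83 without day 5 (0.0086). Prim2, a primase subunit gene, and Mcm2, a helicase subunit gene, passed on 6 arrays only, at -1.54 and -1.11. The serine synthesis gene aay rose by 0.84 ± 0.18 (0.36 on 6 arrays), the purine gene ras fell by 0.30 ± 0.07 (-0.27 on 6 arrays) and the ribosome assembly gene NHP2 fell by 0.31 ± 0.07 (-0.21 on 6 arrays), each the 1 call of its list on 10 arrays, and none of the 3 passed without day 5. On 6 arrays the calls of the first 2 lists had the opposite sign, with Ahcy lower in the one-carbon and serine list (-0.45, adjusted p = 0.0439) and Prat2 higher in the purine list (2.46, adjusted p = 0.0444). Water larvae of days 1 and 2 had Prat2 below 4, at 3.08 (M1), 2.53 and 3.19 (M2). On day 5 Prat2 was lower in M1 ethanol larvae (8.40 against 9.16) and higher in those of M2 (8.12 against 5.95). Among 58 cuticle protein genes, Cpr60D rose and Lcp65Aa, Cpr49Ad and Cpr50Cb fell, with changes between -0.50 and 0.58, and none passed without day 5. No gene passed among 32 cytosolic ribosomal proteins, 55 genes of oxidative phosphorylation, 19 of autophagy and the lysosome, 14 alcohol behaviour genes and 5 clock genes. Without day 5 the clock-linked factor gene Pdp1 passed at 0.57, against 0.09 ± 0.17 over 10 arrays.

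**Figure D4:**
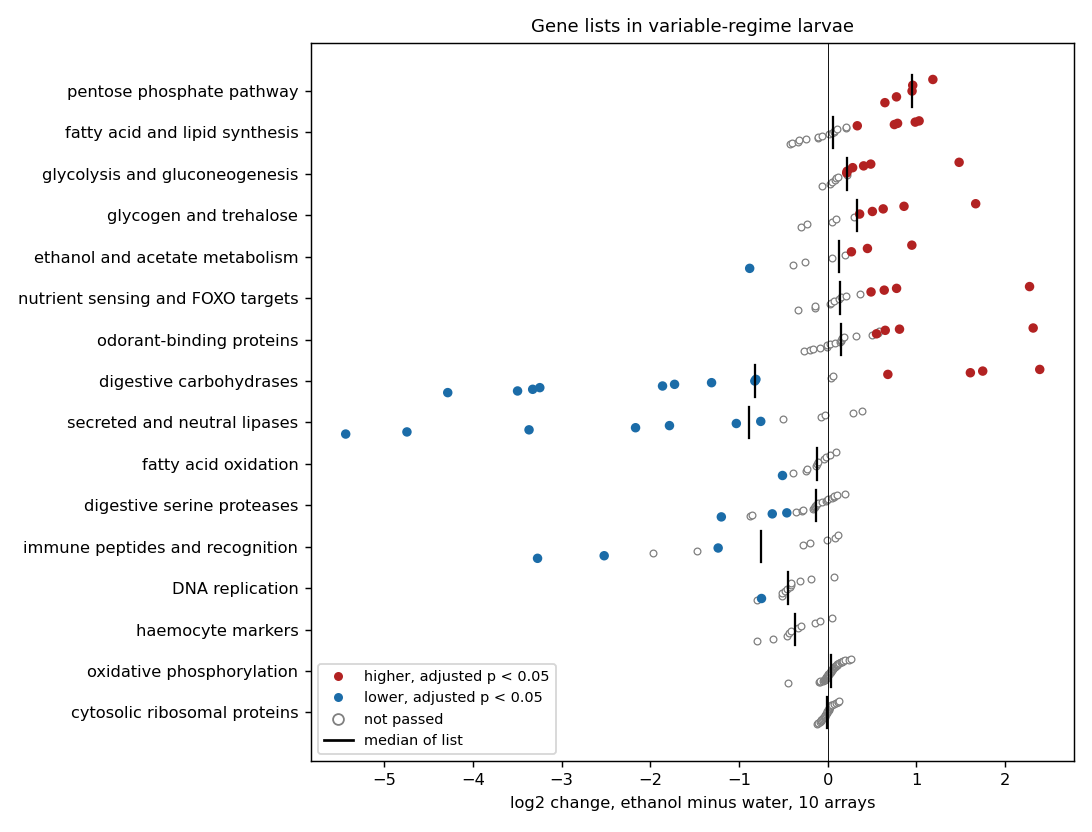
Log2 change (ethanol minus water, horizontal axis) of the tested genes of 16 lists (rows), 1 point per gene, from 10 arrays. Filled red and blue points passed at adjusted p under 0.05, open points did not, and black bars are list medians. All 5 tested pentose phosphate genes lie to the right and 7 lipase genes to the left, while no ribosomal protein or oxidative phosphorylation gene passed.

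The next comparison asked whether the replicate populations M1 and M2 responded alike. M1 alone gave 92 calls (0.982%) and M2 alone 73 (0.779%), with 43 in both, and all 448 probe sets, called on these same arrays, had 1 sign in M1 and M2. The difference of the responses passed for 0 of 9372 probe sets (0%) by limma, with 246 at an unadjusted p under 0.05 and a smallest adjusted p of 0.998. In simulated data with the measured spread this test recovered 26% of differences of 1 on the log2 scale. The 0 calls therefore do not show that the responses were alike. The smallest p belonged to CG34166, whose change was -0.24 in M1 and -0.75 in M2, and to CG13962, with -1.27 in M1 and -0.53 in M2. CG16727 had -0.61 in M1 and 0.67 in M2, the chitin deacetylase gene verm had -0.18 in M1 and 0.81 in M2, and CG18180, listed under a serine protease family name, had -1.85 in M1 and -0.59 in M2. None of these differences passed.

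Without day 5 the same test, on 6 arrays with 1 residual degree of freedom, gave 16 calls, and 0 when all populations shared the estimate of spread (356 at an unadjusted p under 0.05). M1 then has 1 pair on day 1 and M2 1 pair on day 2, so population and day cannot be told apart in that difference. Outside the rule for named genes, and chosen after their values were seen, they include the mitotic genes CycB, CycB3 and pim. CycB stood at 6.75, 8.83, 6.76, 5.23 and 7.75 in ethanol larvae, against 4.51, 6.10, 4.74, 4.73 and 8.12 in water larvae. The M1 ethanol array of day 2, for which no M1 water array of that day was analysed, was the highest of all 10, as it was for CycB3 (8.12) and for pim (8.94). Over all 10 arrays CycB differed by 2.03 ± 1.31 between the responses of M1 and M2. The other named genes were LManVI, CG33272, CG10081, CG12766, CG32751, Prat2, CG13738, CG34005, Alp7, MtnB, cpx and EAChm.

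The 4 pairs were more alike within a pair of days than across them. Over the 9372 tested probe sets the ethanol-minus-water differences of M1 on day 1 and M2 on day 2 correlated at 0.661, and those of M1 and M2 on day 5 at 0.626. Between a pair of day 1 or 2 and a pair of day 5 the correlations were 0.264 to 0.375. In the control populations, the corresponding values were 0.383 to 0.693 for 6 comparisons among days 1 and 2, 0.669 for the 1 within day 5 and 0.32 to 0.63 for 8 across. Both day 5 pairs labelled M1 or M2 come from arrays nearest E1 or E2, so day and apparent population cannot be told apart in the 4 pairs. The day 5 pairs labelled E1 and E2 come from arrays nearest M1 and M2. They correlated with the pairs of M1 on day 1 and M2 on day 2 at 0.474 to 0.638. All these correlations are descriptions across probe sets, which are not independent, and pairs of 1 day share that day's processing. In the called probe sets the median size of the difference was 0.69 in M1 on day 1, 0.65 in M2 on day 2, 0.66 in M1 on day 5 and 0.72 in M2 on day 5.

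The last comparisons set the response of the variable regime beside those of the control and ethanol regimes, in a model of all 34 arrays. It called 665 of 9729 probe sets in the variable regime (6.84%), 820 in the ethanol regime (8.43%) and 1759 in the control regime (18.1%), from 10 arrays in the variable regime and 12 in each of the others. Of the 448 probe sets above, 337 were also called in the ethanol regime and 385 in the control regime, 38 in neither, and 444 had the same sign in both. The difference itself passed for 0 probe sets (0%) against the control regime, with 385 at an unadjusted p under 0.05 and a smallest adjusted p of 0.996. Against the ethanol regime it also passed for 0 (0%), with 159 at an unadjusted p under 0.05 and a smallest adjusted p of 0.999. Without day 5 both counts were again 0, with 234 and 537 at an unadjusted p under 0.05.

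The 24 leading genes had the same sign in all 3 regimes. Lip3 changed by -5.26 in the variable regime, -4.85 in the ethanol regime and -5.51 in the control regime. The difference from the control regime was 0.25 ± 1.06 (standard error). AcCoAS changed by 0.92, 1.01 and 1.04 in the same order, a difference of -0.12 ± 0.13 from the control regime, and Taldo by 1.17, 1.10 and 1.24, a difference of -0.07 ± 0.17. The error was far wider for Lip3 than for the bright genes AcCoAS and Taldo, and the cause was not tested. Among variable-regime arrays, Lip3 was near the floor in ethanol larvae except for the array labelled M1 on day 5 (6.84). Its highest water value, 11.22, came from the same label and day. Over the 24 leading genes, the widest gap was 1.27 to the control regime and 0.63 to the ethanol regime, with smallest unadjusted p-values of 0.0734 and 0.342. Without day 5, which leaves only arrays nearest their labelled population, the widest gaps were 1.25 to the control regime (CG8093, unadjusted p = 0.00343) and 1.18 to the ethanol regime (CG9672, with -1.18, unadjusted p = 0.0411). Then 2 of the 24 had an unadjusted p under 0.05 against the control regime, CG8093 at 1.25 and Mal-A8 at -0.93, beside 234 of all 9729 probe sets. Against the ethanol regime they were 6, beside 537 of all 9729. These 6 were CG9672, CG1774 (-1.15), LManV (-1.13), LManIII (-0.89), CG3348 (-0.73) and sug (-0.65). The 24 were chosen for large changes on the same variable-regime arrays, so these counts only describe them. None of the 24 passed adjustment over all probe sets, and no test of likeness was made.

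The smallest p-values of the difference from the control regime, none of which passed, were those of CG13795, CG5946, Sgs5, Alp8 and CG7798. CG13795 changed by 0.11 in the variable regime and 0.88 in the control regime, a difference of -0.76 ± 0.18, or -0.76 without day 5 (unadjusted p = 0.000341 with day 5), and CG5946 by 0.23 in the variable regime and 0.69 in the control regime, a difference of -0.46 ± 0.12, or -0.55 without day 5. Sgs5, a glue protein gene, stood at 4.49, 4.85, 5.58, 6.33 and 4.14 in ethanol larvae, against 3.28, 3.78, 3.62, 3.69 and 2.67 in water larvae. Its change was 1.83 in the variable regime and 4.13 in the control regime, a difference of -2.30 ± 0.60, or -1.63 without day 5. Every variable-regime water value of Sgs5 lay below the detection level of 4, so the size of these changes depends on the background correction. The glue genes Sgs3, Sgs4, Sgs7 and Sgs8 stayed below 4 on all variable-regime arrays. Alp8, an alkaline phosphatase gene, changed by -1.17 in the variable regime and -3.29 in the control regime, a difference of 2.12 ± 0.56, or 1.09 without day 5. CG7798 changed by -0.52 in the variable regime and -1.18 in the control regime, a difference of 0.66 ± 0.19, or 0.66 without day 5. Against the ethanol regime the smallest p-values were those of the sorbitol dehydrogenase gene Sodh2, which changed by -0.10 in the variable regime and -0.42 in the ethanol regime, and of CG17110, with -0.67 in the variable regime and -0.03 in the ethanol regime. Their differences of 0.32 and -0.64 were 0.43 and -0.91 without day 5. CG30053, Acp95EF and CG8888 followed, with differences of -0.64, 0.31 and -0.48, and -0.38, 0.33 and -0.43 without day 5.

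**Figure D5:**
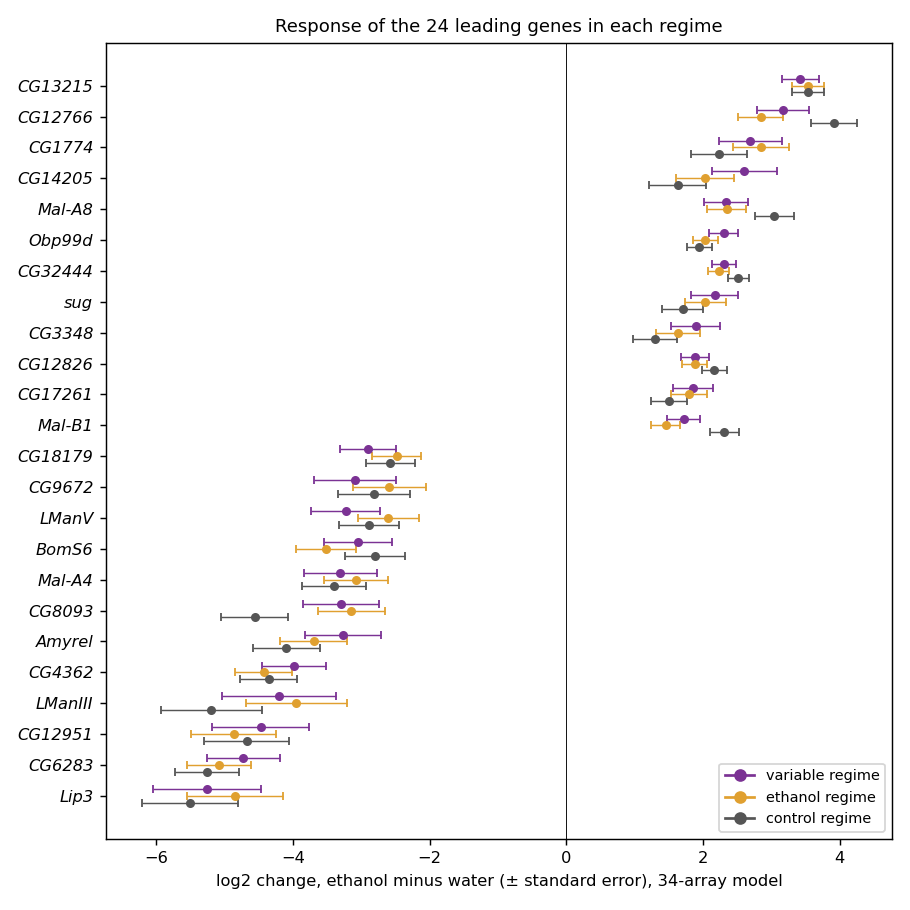
Log2 change (ethanol minus water, horizontal axis) with its standard error for the 24 leading genes (rows) in the variable, ethanol and control regimes, from the model of 34 arrays. Every gene has 1 sign in all 3 regimes, and no difference between regimes passed at adjusted p under 0.05.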

How the data were processed

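Labelled cDNA of larval pools was hybridised to Affymetrix arrays. The authors deposited 1 log2 value for each probe set and array, computed with GCRMA and affy according to the submitters' processing notes, which name no version. GCRMA corrects background by probe sequence and normalizes arrays to each other, so values near the floor depend on its background model. Of 18769 probe sets, 13544 name 1 gene through the RefSeq table, 103 through the platform annotation alone, 402 list more than 1 gene, and 4720 have no gene listed and stay unnamed.

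Groups, populations and days came from the titles and descriptions. R 4.3.3 and limma 3.58.1 (lmFit, eBayes with trend, two-sided, Benjamini-Hochberg at 0.05 over all probe sets tested) fitted exposure, population and day to the 10 arrays, and for the regimes the means of 12 combinations of population and exposure plus day to all 34. Per the labels, blocks held 1 sample per population and exposure, so the day number pairs samples by design and is a term of each fit. The number of arrays limits the precision. The 10-array fit has 5 residual degrees of freedom and the 6-array fit 2.

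The members, the gene lists and the tests were chosen with earlier results of these data known. Named genes are the 12 largest increases and decreases with 1 sign in all 4 pairs, the 5 smallest p-values of each difference, up to 4 leading members per list, and Adh, Adhr, Aldh and AcCoAS. Other called members of the lists are also named, chosen after their values were seen. Fits were tested on simulated data. The alternatives were other filters, floors, normalizations, moderation, day terms and sets of arrays, 1 probe set per gene, and population differences as replicates. A planned description of promoter motifs was not made, as no promoter sequence was used here, and no coordinates are given.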

Additional observations from a re-analysis of the deposited data

Results flagged for a closer look

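For the leading genes, the list members called with or without day 5 and the genes of each difference of responses, the highest and lowest of the 5 arrays of each exposure were set against their nearest neighbour. Of 276 groups, 23 held an array that stood apart by Dixon's test. Its cut-off flags about 1 in 20 groups of 5 independent values from 1 normal distribution. The groups here mix populations and days, share their arrays and hold genes partly chosen on them. The count of 23 therefore cannot be set against that rate. The array labelled M1 ethanol of day 5 stood apart in 9, the array labelled M1 water of day 5 in 9, M2 water of day 5 in 2, and M2 ethanol of day 2, M2 ethanol of day 5 and M2 water of day 2 in 1 each.

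The array labelled M1 ethanol of day 5 was high for Lip3 (6.84, next 2.41), LManIII (5.79, next 1.70), CG6283 (7.61, next 4.29), CG12951 (4.03, next 1.97), Amyrel (6.06, next 3.26), CG9672 (8.54, next 4.85), Cyp4ac1 (8.79, next 8.41) and BomS5 (10.06, next 6.83). All 8 are genes that were lower in ethanol larvae, although BomS5 passed only without day 5. The same array was low for Eno (12.65, next 12.74), which was higher in ethanol larvae.

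The array labelled M1 water of day 5 was low for sug (7.35, next 9.84), CG1774 (4.97, next 7.87), CG3348 (7.71, next 10.06), Lsd-1 (9.21, next 10.34), FASN2 (4.38, next 5.10), AGBE (6.17, next 6.76) and Rpe (8.62, next 9.04), all higher in ethanol larvae, and high for CG12951 (10.20, next 6.01) and GstE7 (9.33, next 7.71).

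The remaining arrays stood apart in Jon66Ci (4.61, M2 ethanol of day 2), Pepck2 (8.64, M2 water of day 5), RnrL (8.86, M2 water of day 5) and NHP2 (11.82, M2 ethanol of day 5, and 12.25, M2 water of day 2). The 2 arrays labelled M1 on day 5 are among those that went against their population label, and the part of that in these values was not tested.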

How the results depend on the processing

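The count of 448 calls stayed within 1.5 times under no filter, a mean of at least 6, values under 4 set to 4, all 34 arrays, centring, quantile normalization, robust moderation, moderation with no trend, a single probe set per gene and without day 5 (342 to 665). It was 184 with no replicate block (no day term) and 282 with each population and day as 1 block, in which only complete pairs count. It was 206 without day 1, 188 without day 2, 173 without M1 and 147 without M2, where fewer arrays enter, and 160 to 562 when 1 array was left out. The block also decides single calls: with no day term 46 named results missed the threshold. The difference between M1 and M2 gave 16 calls without day 5, and 0 to 2 when 1 array was left out, the 2 being sug and CG3348 without M1 water of day 1. The difference from the control regime gave 1 call with no filter (Drsl2, 1.41 ± 0.23) and 1 without day 2 (Sgs5, -3.10 ± 0.39), and 0 under its other alternatives, 1 array left out included. Sgs5 lay below 4 on every variable-regime water array. The difference from the ethanol regime gave 0 calls under every alternative run, 1 array left out included. With population differences as replicates both gave 0, with 529 and 211 at an unadjusted p under 0.05. For the leading genes, the Adh probe sets and all called list members, 104 in all, 2045 of 2689 values kept direction and call, 644 kept direction only and 0 reversed. Among single arrays, most calls were lost without M2 ethanol of day 5 (50) and M1 ethanol of day 1 (47). With values under 4 set to 4, LManIII had -2.29 and missed the threshold (adjusted p = 0.0725). Pdp1, called only without day 5, reversed to -0.075 without day 1, -0.032 without day 2 and -0.098 without M1, and ran from -0.049 to 0.333 when 1 array was left out, below 0 for 3 arrays. Jon65Aii, also called only without day 5, ran from -0.446 to 0.0045 when 1 array was left out, above 0 without M2 ethanol of day 2. The causes were not tested. Values below 4 and near 14 limit what changes can show. The description of promoter motifs was not run.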
